A study of Schizosaccharomyces pombe with 21 samples.

Results

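HASX is a fission yeast (Schizosaccharomyces pombe) strain that cannot break down inositol pyrophosphates in the normal way, and the comparison described here is its step from 2 to 4 h without phosphate. It uses 6 of the 21 libraries of the series, 3 of HASX at 4 h and 3 of HASX at 2 h, chosen by their labels, with all genes of the count table. HASX is the haploid strain BS1453 of mating type h-. It carries asp1-H397A::natMX, which changes a histidine of asp1, together with deletions of aps1 (aps1∆::kanMX) and siw14 (siw14∆::hygMX). Its remaining allele is spx1∆::ura4MX, a deletion of the gene named pqr1 in the annotation. The wild type is strain Sp1, also h-. Both grew vegetatively to log phase in ePMGT medium with phosphate and were then moved to ePMGT without phosphate. HASX was sampled at 1, 2 and 4 h and the wild type at 0, 1, 2 and 4 h, with 3 biological replicates per group, and polyA RNA was sequenced. The series asks how a block in inositol pyrophosphate breakdown alters the response to phosphate starvation.

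Inositol pyrophosphates are small signalling molecules with energy-rich phosphate chains, and their level follows the phosphate supply of the cell. In fission yeast they act on where transcription of long non-coding RNAs upstream of the phosphate genes ends, and so on whether those genes are read. Asp1 both makes and breaks them, and the H397A form keeps the kinase but loses the pyrophosphatase. Aps1 is a Nudix hydrolase and Siw14 a cysteine phosphatase that act on the same molecules, and Pqr1 is an SPX-domain ubiquitin ligase that restrains phosphate uptake. Cells short of phosphate make more of a secreted acid phosphatase, of phosphate transporters and of a glycerophosphodiester transporter, and as growth slows they make fewer ribosomes.

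All libraries of the series held between 11.24 M and 23.68 M counts, and those compared here held 17.08 M, 11.24 M and 18.27 M at HASX 4 h and 13.62 M, 16.63 M and 17.64 M at HASX 2 h. The library labelled HASX 4 h replicate 3 stood apart from its partners. Across genes, its levels (log2 CPM, counts scaled to a common library size) correlated with those of replicates 1 and 2 at r = 0.906 and 0.902, while replicates 1 and 2 correlated with each other at 0.990. At HASX 2 h the 3 pairs lay between 0.994 and 0.996. Of 6193 genes, 723 were at least 2-fold above the mean of replicates 1 and 2 in replicate 3 and 32 at least 2-fold below it, whereas replicates 1 and 2 lay 2-fold apart at 28 genes. Long non-coding RNAs held 4.8% of the counts of replicate 3, against 1.59% and 2.02% in replicates 1 and 2 and 2.17% to 2.25% at HASX 2 h. Counts of changed genes in HASX are therefore given with and without replicate 3, and genes are named as changed when replicates 1 and 2 lay on the same side of all 3 libraries at 2 h and within 2-fold of each other.

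The excess in replicate 3 was largest at genes that lie opposite a more abundant gene on the other strand. Among non-coding RNAs that overlap an opposite-strand gene at least 4-fold more abundant, 380 of 572 (66.4%) were at least 2-fold higher in replicate 3 than in its partners, with a median log2 difference of 1.65. Among non-coding RNAs with no such overlap it was 14 of 251 (5.58%), with a median of -0.03. Protein-coding genes with a partner at least 4-fold more abundant exceeded 2-fold at 175 of 508 (34.4%), against 26 of 2344 (1.11%) where nothing overlapped. The part of this pattern in each single result below was not tested.

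**Figure D1:**
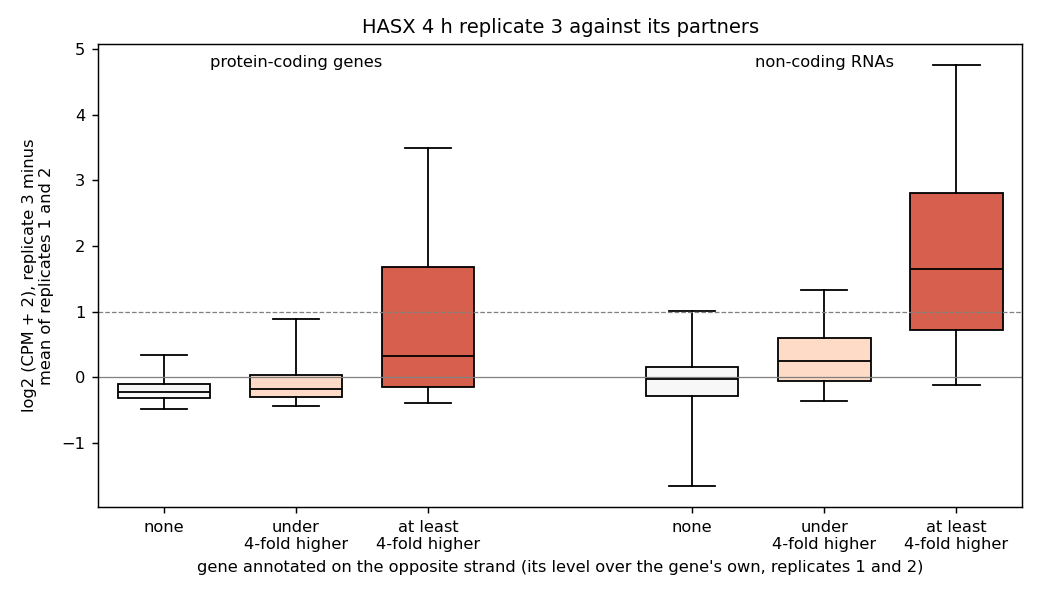
Difference in log2(CPM + 2) between HASX 4 h replicate 3 and the mean of replicates 1 and 2, for non-coding and protein-coding genes grouped by the opposite-strand gene they overlap (none, under 4-fold more abundant, at least 4-fold more abundant). Boxes show quartiles and medians, whiskers the 5th to 95th percentile, and the dashed line a 2-fold excess; the median lies at 1.65 for non-coding genes under an abundant partner and near 0 for those with none.

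The engineered genes were read in every library. siw14, deleted in HASX, had 2.61, 1.77 and 69.6 CPM in HASX at 4 h, against 2.2, 0.569 and 1.54 CPM in HASX at 2 h, and averaged 248 and 173 CPM in the wild type at 4 and 2 h. In replicate 3 its counts were not near 0, although that library's label gives the deletion. The gene overlapping siw14 on the other strand, aim19, was at 14.2 CPM there. The source of these counts was not tested. aps1, also deleted, had 4.04, 5.99 and 15.3 CPM in HASX at 4 h and 3.6, 3.22 and 3.2 CPM at 2 h, against wild-type means of 180 and 186 CPM. Its log2 difference was 1.38 (adjusted p = 0.00265), and 0.58 (adjusted p = 0.0115) without replicate 3. The few counts on this deleted gene thus passed the test with and without that library. asp1, which keeps its reading frame, had 83.5, 83.4 and 306 CPM in HASX at 4 h, against 108, 106 and 110 CPM at 2 h. Without replicate 3 its log2 difference was -0.35 (adjusted p = 0.0385), and with it 0.55 (adjusted p = 0.173).

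Counts on the remaining engineered gene, pqr1, were 99.6, 82.1 and 69.7 CPM in HASX at 4 h, against 46.8, 43.3 and 46.7 CPM at 2 h. These lie below the wild-type means of 317 and 297 CPM but are not near 0, and the groups did not overlap (log2 0.88 ± 0.13, SE, adjusted p = 1.12e-04). The files do not show which stretch of the gene the reads came from. ura4, the marker at that locus, had 640, 661 and 731 CPM in HASX at 4 h and 800, 866 and 923 CPM at 2 h, with no count in the wild type (log2 -0.35, adjusted p = 0.0247; without HASX 2 h replicate 3, -0.29, adjusted p = 0.066).

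Of 6234 genes tested, 409 were at least 2-fold higher in HASX at 4 h than at 2 h at an adjusted p under 0.05 (6.56% of those tested) and 109 were at least 2-fold lower (1.75%). Without replicate 3 the counts were 132 higher (2.11% of 6252 tested) and 213 lower (3.41%). The higher calls were the less stable ones. A fit to the 6 libraries compared alone gave 53 higher and 88 lower, and a fit to the HASX libraries alone 128 higher. Among 2613 genes with no opposite-strand overlap, 65 were higher (2.49%) and 62 lower (2.37%). With all libraries 264 of the 409 were non-coding RNAs, and 322 of the 409 were not called without replicate 3, where 167 had the opposite sign. Of 320 such genes with an annotated position, 304 (95%) overlapped a gene on the other strand, against 3605 of 6216 of all those tested (58%). Of the 109 lower calls 33 were lost without replicate 3 and 0 turned sign.

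The changes that held with and without replicate 3, with replicates 1 and 2 in agreement, were 71 higher genes, 48 of them protein-coding, and 64 lower genes, 50 of them protein-coding. At the adjusted p alone, with no fold minimum, 1431 genes were higher (23%) and 1003 lower (16.1%) with all libraries, and 1528 (24.4%) and 931 (14.9%) without replicate 3. By that measure 1054 higher and 641 lower genes held in both fits with replicates 1 and 2 in agreement. The step was thus a broad one of mostly under 2-fold changes, with a median over all genes of 0.06 on the log2 scale, or -0.02 without replicate 3. In bulk RNA, a change in the number of cells that use a gene and a change in its RNA per cell cannot be told apart.

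The genes of phosphate acquisition, already high in HASX at 2 h, rose further. pho1, the secreted acid phosphatase, had 51597, 46325 and 42550 CPM in HASX at 4 h, against 32584, 32914 and 33341 CPM at 2 h (log2 0.51 ± 0.14, adjusted p = 0.00737). pho84, a phosphate transporter, had 13295, 12034 and 10496 CPM at 4 h, against 6483, 6792 and 6445 CPM at 2 h (log2 0.86 ± 0.13, adjusted p = 8.69e-05). tgp1, the glycerophosphodiester transporter, had 4650, 3825 and 3375 CPM at 4 h, against 2561, 2762 and 2493 CPM at 2 h (log2 0.60 ± 0.14, adjusted p = 0.00269). In all 3 genes the groups did not overlap, replicate 3 gave the lowest 4 h value, and without it the changes were 0.59, 0.97 and 0.72. Together these genes summed to 69542, 62184 and 56421 CPM at HASX 4 h, against 41627, 42468 and 42278 CPM at 2 h. As an unscaled share of the counts, pho1 was at 3.81%, 3.72% and 3.56% at 4 h and 3.26%, 3.13% and 3.19% at 2 h.

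Relative to the wild-type step, the steps of pho1 and tgp1 were smaller and that of pho84 was not called different. pho1 rose by log2 1.08 and tgp1 by 1.15 in the wild type from 2 to 4 h, and the difference between the steps was -0.57 for pho1 (adjusted p = 0.0292, and 0.0498 without replicate 3) and -0.55 for tgp1 (adjusted p = 0.038, and 0.0499 without it). pho84 rose by 0.44 in the wild type, and the difference was 0.42 (adjusted p = 0.0838, and 0.0237 without replicate 3). The levels still differed widely at 4 h, when pho1 averaged 18460 CPM and tgp1 1004 CPM in the wild type.

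Outside this group of 3, 4 of 8 further phosphate and polyphosphate genes rose in HASX (50%) and 0 fell, with a median log2 change of 0.29, or 5 and 0 without replicate 3. pho842, another phosphate transporter, had 4925, 4321 and 3796 CPM at 4 h, against 1866, 1869 and 1571 CPM at 2 h. Its rise of log2 1.30 (adjusted p = 9.53e-07) exceeded the wild-type rise of 0.50, with a difference of 0.80 (adjusted p = 0.002). pho7, the transcription factor of the phosphate genes, had 206, 171 and 152 CPM at 4 h and 123, 120 and 106 CPM at 2 h (log2 0.60). pho8, a vacuolar alkaline phosphatase, rose by 0.43. Of 6 inositol phosphate enzymes 1 rose (ipk1, an inositol phosphate kinase, log2 0.57) and 1 fell (0 to 2 with each HASX library left out in turn), with the same counts without replicate 3.

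Among protein-coding genes at a mean of at least 10 CPM in which replicates 1 and 2 agreed, the largest rises were in thiamine synthesis. nmt1, which makes the pyrimidine part of thiamine, had 519, 602 and 560 CPM in HASX at 4 h, against 55, 89.3 and 64.1 CPM at 2 h (log2 3.01 ± 0.18, adjusted p = 1.10e-09). thi2, which makes the thiazole part, had 1266, 1268 and 1250 CPM at 4 h, against 201, 243 and 177 CPM at 2 h (log2 2.61 ± 0.12, adjusted p = 4.55e-11). Both were as high without replicate 3 (3.03 and 2.63). In the wild type nmt1 averaged 1.09 CPM at 4 h and 0.807 CPM at 2 h and thi2 69.7 and 70.2 CPM, neither called, and the steps differed by 2.57 for nmt1 and 2.62 for thi2 (adjusted p = 3.14e-05 and 3.95e-09).

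nmt1 overlaps the non-coding RNA SPNCRNA.1234, which was at 40.5, 45.9 and 464 CPM at HASX 4 h, against 46.7, 43.1 and 41.4 CPM at 2 h. In replicates 1 and 2 the partner thus lay within or near its 2 h range while nmt1 did not. Of 8 thiamine genes tested, 5 rose (62.5%), 0 fell and the median was 0.45. thi9, the thiamine transporter, had 153, 157 and 148 CPM at 4 h and 94.6, 94.9 and 87 CPM at 2 h (log2 0.73), and thi4, which joins the parts, rose by 0.38. The transcription factors thi1 and thi5 and the thiamine-repressed acid phosphatase pho4 were not called, and tnr3, the thiamine pyrophosphokinase, was called with all libraries (0.52) but stood at 0.12 without replicate 3. Without it, 4 of 8 rose, with a median of 0.25.

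By the same criteria, the next largest rise that did not rest on replicate 3 was that of sro1, a stress-responsive gene, at 1757, 1497 and 1216 CPM in HASX at 4 h, against 376, 376 and 365 CPM at 2 h (log2 2.00 ± 0.15, adjusted p = 4.65e-08). It rose by 0.84 in the wild type, and the steps differed by 1.16. mpe1, a RING-type ubiquitin ligase whose budding yeast relative belongs to the cleavage and polyadenylation factor, had 383, 351 and 465 CPM at 4 h, against 129, 122 and 96.7 CPM at 2 h (log2 1.79 ± 0.16). In the wild type mpe1 fell by 0.47 to a mean of 51.3 CPM at 4 h, against 71.3 CPM at 2 h, so the steps differed by 2.26 (adjusted p = 4.41e-07). Both genes were clear of overlap between the groups in every library.

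A further 4 of the 12 largest rises, all in genes with no characterised product, had the same separation. SPAPB18E9.05c reached 256, 256 and 253 CPM, against 58.9, 70 and 74.2 CPM at 2 h (log2 1.91), close to the wild-type means of 255 CPM at 4 h and 220 CPM at 2 h. SPBC19C7.04c had 90.8, 75.1 and 72.9 CPM at 4 h and 23.9, 15.7 and 24.4 CPM at 2 h. It rose by 1.90 in HASX and by 1.87 in the wild type, with a difference of 0.03 (SE 0.24, adjusted p = 0.931). SPAC4G9.22 rose by 1.88 and SPBC16A3.02c by 1.85, each more than in the wild type (0.56 and 0.99; differences 1.32 and 0.86, both past the test).

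**Figure D2:**
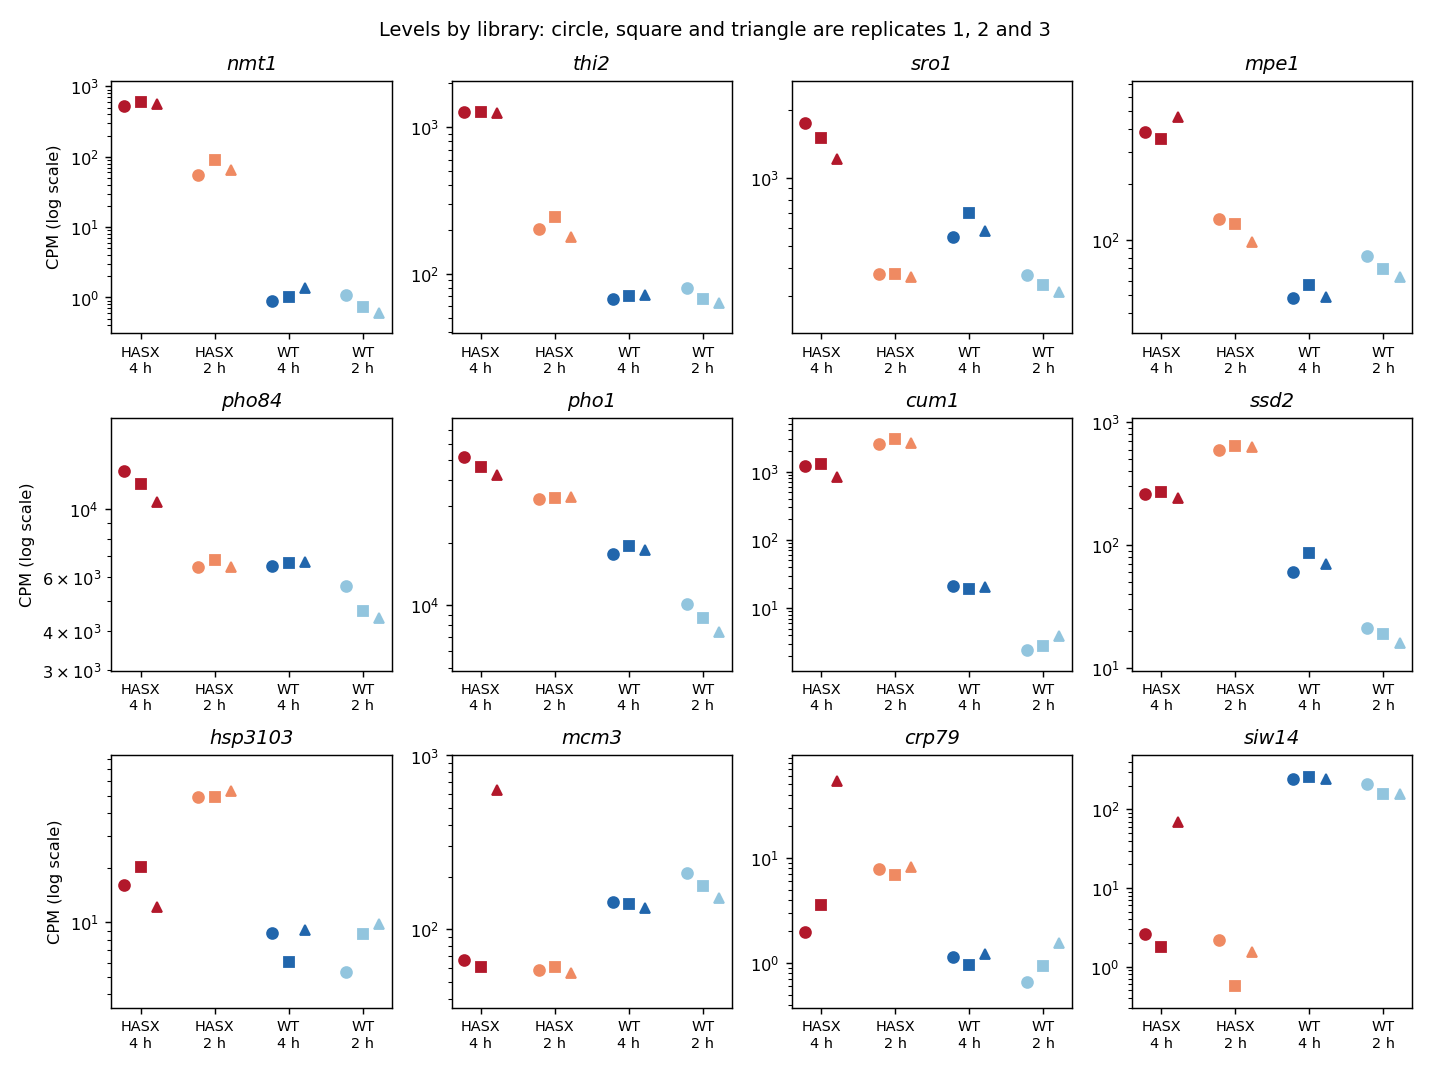
CPM on a log axis in each library of HASX 4 h, HASX 2 h, WT 4 h and WT 2 h for 12 genes, with circles, squares and triangles for replicates 1, 2 and 3. nmt1, thi2, sro1, mpe1, pho84 and pho1 are higher and cum1, ssd2 and hsp3103 lower at HASX 4 h than at 2 h in every library, while in mcm3, crp79 and siw14 the HASX 4 h triangle stands far above the other HASX libraries.

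The other 4 of the 12 largest rises rested on replicate 3. ice2, the gene of an ICE2 family protein, had 13.3, 16.1 and 161 CPM at 4 h, against 12.9, 12.3 and 9.41 CPM at 2 h, and its log2 change of 2.47 became 0.37 (adjusted p = 0.0412) without that library. mcm3, a subunit of the replicative helicase, had 66.8, 61.1 and 634 CPM at 4 h and 58.2, 60.8 and 56 CPM at 2 h, with 2.13 with all libraries and 0.15 (adjusted p = 0.217) without replicate 3. SPCC622.03c stood at 2.29 with it and 0.30 without it and SPAC23C4.09c at 2.19 and 0.51, neither past the test without it (adjusted p = 0.204 and 0.157). The genes on the other strand of ice2 and mcm3 are rps23, at 198 CPM in replicate 3, and qcr9, at 759 CPM there.

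The largest non-coding RNA rises were of this kind. SPNCRNA.870 had 2.69, 2.11 and 217 CPM in HASX at 4 h, against 1.4, 2.02 and 1.6 CPM at 2 h, opposite lys12, which was at 267 to 360 CPM in the 4 h libraries. SPNCRNA.1675 had 5.54, 5.66 and 203 CPM and SPNCRNA.1093 6.97, 5.32 and 122 CPM at 4 h. Their log2 changes of 5.46, 3.88 and 3.80 became 0.55, 0.22 and 0.95 without replicate 3. The 3 largest falls of non-coding RNAs kept their direction without it. SPNCRNA.953 had 33.9, 38.6 and 43 CPM at 4 h and 77.8, 74.3 and 76.3 CPM at 2 h (log2 -0.98, and -1.05 without replicate 3). SPNCRNA.1426 fell by 1.23 and SPNCRNA.1427 by 1.14 on the log2 scale (-1.27 and -0.98 without replicate 3). The count of falling non-coding RNAs did depend on it. At least 2-fold lower were 24 with all libraries and 101 without replicate 3, and 13 held in both fits with replicates 1 and 2 in agreement.

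Among the protein-coding genes that fell most were enzymes of small-molecule detoxification and breakdown. hsp3103, a glyoxylase III of the ThiJ family, had 16, 20.1 and 12.2 CPM in HASX at 4 h, against 49.5, 49.5 and 53.2 CPM at 2 h (log2 -1.66 ± 0.24, adjusted p = 5.87e-05). ssd2, a succinate-semialdehyde dehydrogenase, had 263, 269 and 241 CPM at 4 h, against 592, 643 and 625 CPM at 2 h (log2 -1.27 ± 0.14, adjusted p = 3.88e-06). SPAC1F7.10, a hydantoin racemase family protein, had 65.4, 60.1 and 51.7 CPM at 4 h and 140, 148 and 165 CPM at 2 h (log2 -1.35). All 3 separated the groups completely, and without replicate 3 they fell by 1.48, 1.20 and 1.25.

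SPBC800.11, a nucleoside hydrolase, had 90.6, 79.9 and 93.8 CPM at 4 h, against 183, 213 and 251 CPM at 2 h (log2 -1.29). SPACUNK4.17, an NAD-binding dehydrogenase, had 920, 889 and 745 CPM at 4 h, against 1820, 2116 and 2127 CPM at 2 h (log2 -1.25). SPCC757.13, a dipeptide transporter, had 40.6, 35 and 34 CPM at 4 h and 89.4, 89.6 and 77.7 CPM at 2 h (log2 -1.23). In this set too no library of one time reached those of the other. Lower as well were SPAC11D3.03c (-1.55), omt2, a pterin dehydratase (-1.39), SPAC9G1.14 (-1.37) and SPAC513.02 of the phosphoglycerate mutase family (-1.26).

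The most abundant of the 12 was cum1, at 1212, 1307 and 839 CPM in HASX at 4 h, against 2527, 3018 and 2592 CPM at 2 h (log2 -1.28 ± 0.18, adjusted p = 4.62e-05). The wild type held means of 20.5 CPM at 4 h and 3.07 CPM at 2 h. iss1, opposite cum1, was at 101 and 104 CPM in HASX 4 h replicates 1 and 2 and at 717 CPM in replicate 3, and the fall of cum1 was 1.09 without that library.

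Leaving out replicate 3 also brought genes past the 2-fold limit. On the higher side these were gains of size only: gpd3, a glyceraldehyde-3-phosphate dehydrogenase, had 44218, 37060 and 27370 CPM at 4 h, against 17219, 19123 and 18135 CPM at 2 h, with 1.00 on the log2 scale with all libraries and 1.18 without replicate 3. The same held for the gluconate symporter ght3 (0.99 and 1.14), the ubiquitin-conjugating enzyme ubc4 (0.95 and 1.11), the sterol acyltransferase are1 (0.95 and 1.11), the glucose starvation factor rst2 (0.99 and 1.10) and the inositol phosphorylceramide synthase aur1 (0.98 and 1.09).

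On the lower side the values of replicate 3 lay near or above those at 2 h where replicates 1 and 2 lay below them. crp79, a poly(A)-binding protein, had 1.98, 3.55 and 54.2 CPM at 4 h and 7.93, 6.95 and 8.29 CPM at 2 h, giving 1.37 with all libraries and -1.49 without replicate 3. slx4, an endonuclease subunit, had 5.46, 5.88 and 14.6 CPM at 4 h and 18.3, 14.9 and 15.1 CPM at 2 h (-0.88, adjusted p = 0.0737, and -1.49 without replicate 3). shk2, a p21-activated kinase, had 8.79, 14 and 34.2 CPM at 4 h and 36.3, 32 and 32.9 CPM at 2 h, with -0.82 (adjusted p = 0.0453) and -1.56. That call of shk2 was lost when another single HASX library was left out (adjusted p from 0.073 to 0.166). meu25 fell by 0.95 with all libraries and by 1.42 without replicate 3. SPAC694.03, a nicotinamide-nucleotide adenylyltransferase, stood at 0.02 and -1.55, and SPAC1039.08, a serine acetyltransferase, at 0.07 and -1.43.

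Gene groups are described next by the members past an adjusted p of 0.05 over all genes, to be read against the shares of all genes, 23% higher and 16.1% lower in HASX and 14.4% higher and 13.6% lower in the wild type. For the difference between the steps, HASX minus wild type, 17.9% of all genes were positive and 13.1% negative, or 21% and 16% without replicate 3. A range after a count is that over leaving out each of the 6 HASX libraries in turn. Most cytosolic ribosomal protein genes fell: of 136 tested, 75 were lower (55.1%) and 3 higher (2.21%), with a median log2 change of -0.38. Without replicate 3 the count was 62 lower and 5 higher with a median of -0.29 (range 58 to 84 lower). rpl42, of the large subunit, had 128, 132 and 113 CPM in HASX at 4 h, against 254, 281 and 295 CPM at 2 h (log2 -1.16), and rpl1901 fell by 1.02. The higher members were rpl14 (0.72, and 0.32 without replicate 3, adjusted p = 0.109), rpl3702 (0.41) and rpl1502 (0.38), with a range of 0 to 6 in the count. Many of these genes have near-identical copies, between which the division of reads is not known.

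The fall of the ribosomal protein genes in HASX was small beside that in the wild type over the same 2 h. All 136 fell in the wild type, with a median of -1.49, and the difference between the steps was positive for 125 genes and negative for 0, or 131 and 0 without replicate 3. Summed over the list, HASX had 18735, 16992 and 14966 CPM at 4 h and 19977, 23010 and 23494 CPM at 2 h. The wild type had 62130, 57834 and 60186 CPM at 4 h and 185693, 163282 and 139697 CPM at 2 h. HASX was thus already below the wild type's 4 h level at 2 h.

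Ribosome biogenesis factors did not move together in HASX. Of 95, 12 rose (12.6%) and 11 fell (11.6%), with a median of -0.05, or 0.00 with DESeq2's size factors. Without replicate 3 it was 19 higher and 6 lower (ranges 10 to 19 and 4 to 10). In the wild type 0 rose and 88 fell. nog1, a GTPase of large-subunit assembly, had 196, 151 and 154 CPM in HASX at 4 h and 84.7, 93 and 89.2 CPM at 2 h (log2 0.91), whereas rlp7, also of large-subunit assembly, had 44.3, 54.9 and 41 CPM at 4 h and 97.2, 103 and 100 CPM at 2 h (log2 -1.10). Translation factors were mixed as well, 7 of 32 higher (21.9%, range 4 to 12) and 3 lower (9.38%, range 3 to 6), or 12 and 4 without replicate 3, against 27 of 32 lower in the wild type. The lower ones included the elongation factor 1-alpha genes tef102 (-0.75, and -0.46 without replicate 3) and tef101 (-0.73 and -0.45). Of 32 subunits and factors of RNA polymerases I and III, 10 fell (31.2%, range 4 to 6) and 4 rose (range 3 to 5), or 6 and 5 without replicate 3. Of these rrn5 (-0.93) and sfc6 (-0.83) fell most. Of 6 regulators of ribosome genes, sfp1 (0.63) and rrn3 (0.44) rose, and 2 fell with all libraries (range 0 to 1) and 0 without replicate 3.

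**Figure D3:**
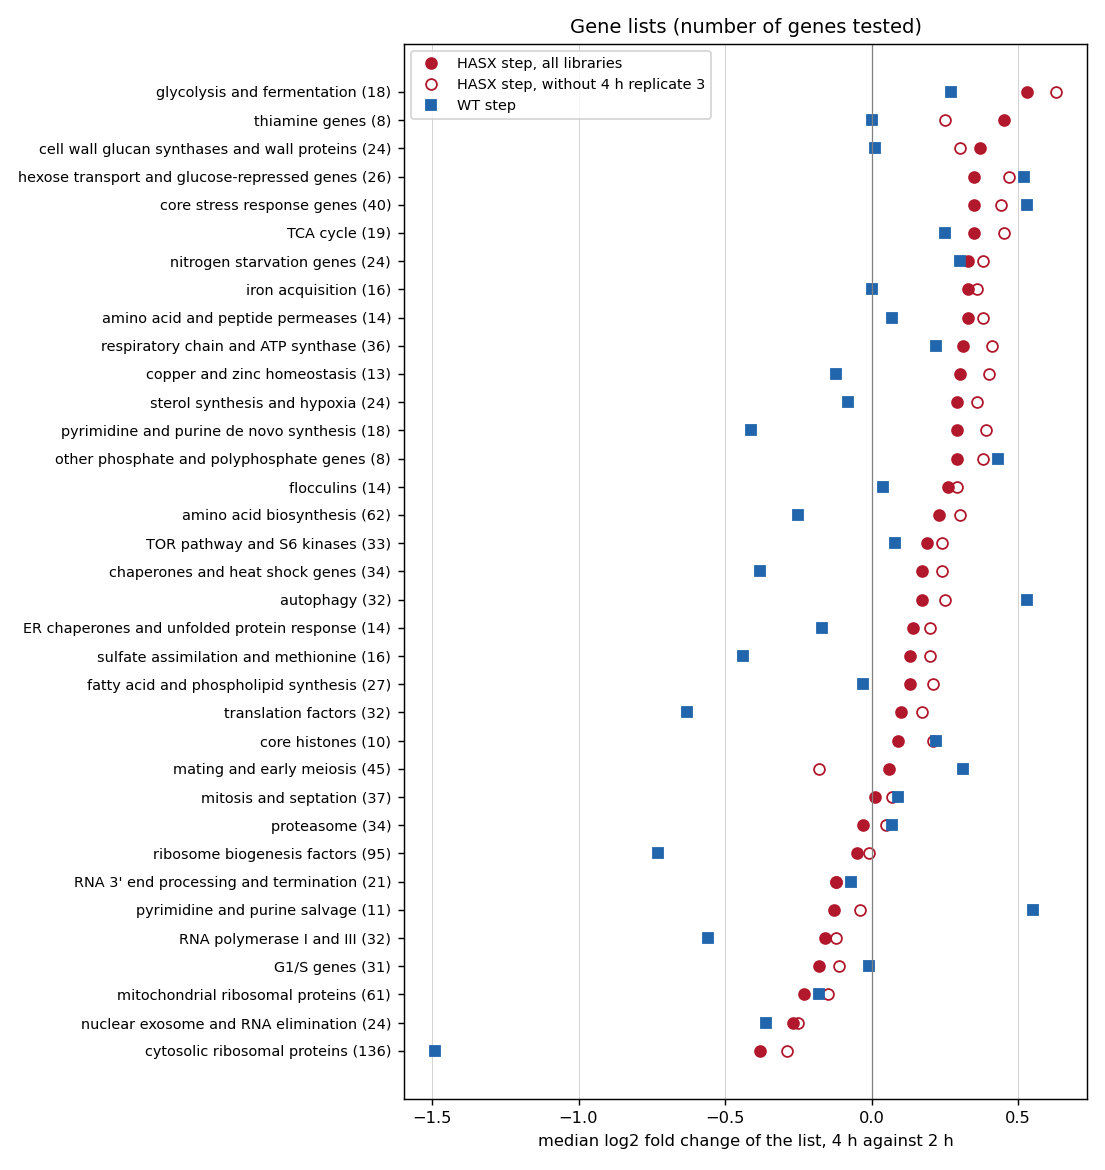
Median log2 fold change from 2 to 4 h over the tested members of each gene list with at least 8 tested genes. Filled red circles are HASX with all libraries, open red circles HASX without 4 h replicate 3 and blue squares the wild type; ribosomal protein genes lie at -0.38 in HASX and -1.49 in the wild type, glycolysis at 0.53 and 0.27.

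Most glycolysis and fermentation genes rose: 11 of 18 (61.1%) with a median of 0.53, or 14 of 18 with a median of 0.63 without replicate 3 (range 10 to 14), and 1 fell (range 0 to 1). adh1, the main alcohol dehydrogenase, had 17692, 14769 and 14174 CPM in HASX at 4 h, against 7214, 7314 and 7525 CPM at 2 h (log2 1.08 ± 0.14, adjusted p = 1.66e-05). pyk1, pyruvate kinase, had 14716, 12243 and 11990 CPM at 4 h, against 5720, 6368 and 6834 CPM at 2 h (log2 1.04 ± 0.15, adjusted p = 4.98e-05). Phosphoglycerate mutase (gpm1, 0.96) and phosphoglycerate kinase (pgk1, 0.93) rose alongside. The list as a whole summed to 230236, 199789 and 191173 CPM at HASX 4 h and 115563, 128495 and 136413 CPM at 2 h. These groups did not overlap, and on scaled library sizes the sums are not shares of the counts. In the wild type 6 of 18 rose (33.3%), with a median of 0.27, and the steps of adh1 and pyk1 differed by 0.67 and 0.89 (adjusted p = 0.0111 and 0.00267).

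More mitochondrial energy genes rose than fell, with smaller medians. Of 19 TCA cycle genes 10 rose (52.6%) and 0 fell (range 0 to 1), median 0.35, though 15 rose without replicate 3 and 6 without HASX 2 h replicate 1 or 4 h replicate 1. sdh2, of succinate dehydrogenase, rose by 0.58 and cit1, citrate synthase, by 0.55. Of 36 genes of the respiratory chain and ATP synthase 17 rose (47.2%, range 8 to 25), median 0.31, and 1 fell (range 0 to 2), or 25 and 0 without replicate 3. atp14, of the ATP synthase, had 331, 316 and 281 CPM at 4 h and 167, 174 and 190 CPM at 2 h (log2 0.81). In the wild type 5 genes of each list rose. Of 26 hexose transport and glucose-repressed genes 11 rose (42.3%) and 4 fell (ranges 8 to 12 and 0 to 2), or 12 and 1 without replicate 3, against 14 and 1 in the wild type. ght6, a hexose transporter with few counts, had 4.36, 2.44 and 12.1 CPM in HASX at 4 h and 1.69, 1.14 and 1.36 CPM at 2 h. Its log2 change was 2.19 with replicate 3 and 1.33 without it. It was not called in a fit to the groups compared alone.

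**Figure D4:**
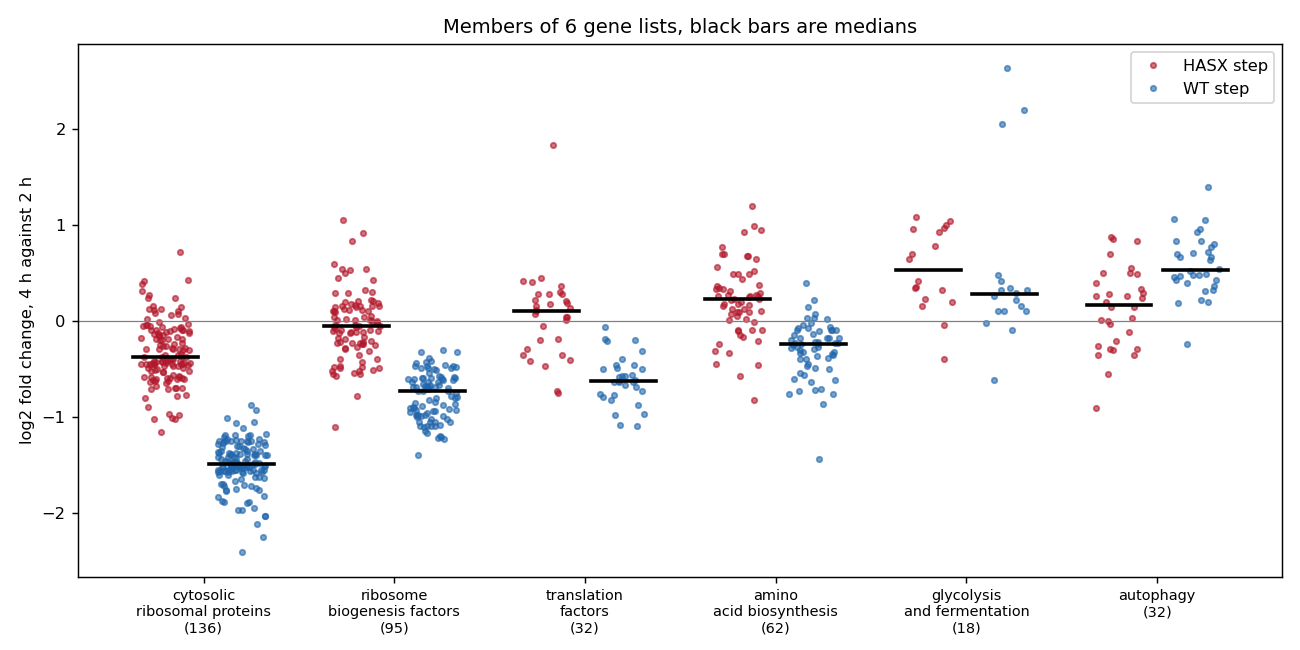
Log2 fold change from 2 to 4 h of each tested member of 6 gene lists in HASX (red) and in the wild type (blue), with black bars at the medians. Ribosomal protein, biogenesis and translation factor genes spread around or just below 0 in HASX but lie low in the wild type, amino acid biosynthesis is higher in HASX, and autophagy is higher in the wild type.

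More genes of amino acid and nucleotide synthesis rose than fell in HASX, and in the wild type more fell than rose. Of 62 amino acid biosynthesis genes 22 rose (35.5%) and 5 fell (8.06%), with a median of 0.23 (ranges 17 to 33 and 2 to 7), or 33 and 2 without replicate 3. In the wild type 1 rose and 22 fell, and the difference between the steps was positive for 36 members and negative for 2, or 45 and 2 without replicate 3. gly1, threonine aldolase, had 143, 104 and 104 CPM in HASX at 4 h, against 48, 49.9 and 54.9 CPM at 2 h (log2 1.20, adjusted p = 6.20e-06). sua1, ATP sulfurylase, had 1345, 1228 and 1148 CPM at 4 h, against 622, 623 and 629 CPM at 2 h (log2 0.99), while it fell by 0.76 in the wild type. glt1, glutamate synthase, rose by 0.93.

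Of 18 genes of purine and pyrimidine synthesis 9 rose (50%) and 1 fell (range 0 to 1), median 0.29, against 0 higher and 10 lower in the wild type. ade4, the amidophosphoribosyltransferase of purine synthesis, rose by 0.56 in HASX and fell by 0.78 in the wild type, and gua2 (GMP synthase) and ade8 (adenylosuccinate lyase) rose by 0.49 and 0.47 in HASX. Without replicate 3, 13 rose and 1 fell, and the count of higher members was 5 without HASX 2 h replicate 1 or 4 h replicate 1. Of 16 sulfate assimilation and methionine genes 5 rose (31.2%) and 3 fell (ranges 4 to 7 and 0 to 4), or 6 and 1 without replicate 3, with sir1, of sulfite reduction, at 0.55. Among 11 salvage genes 2 fell (3 without replicate 3) and 1 rose (also without it, range 1 to 2), the uracil permease fur4, which had 345, 259 and 266 CPM at 4 h, against 124, 127 and 104 CPM at 2 h (log2 1.29, adjusted p = 9.32e-07). Of 14 amino acid and peptide permeases 7 rose (50%) and 1 fell (7.14%), or 8 and 1 without replicate 3. cat1, a cationic amino acid permease, was among the higher ones with 0.91, against -0.45 in the wild type.

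Sterol and lipid genes belonged to the higher groups. Of 24 sterol synthesis and hypoxia genes 13 rose (54.2%) and 2 fell (ranges 9 to 15 and 1 to 4), median 0.29, or 15 and 2 without replicate 3, against 1 and 3 in the wild type. erg25, C-4 methylsterol oxidase, had 1001, 796 and 765 CPM in HASX at 4 h, against 380, 345 and 323 CPM at 2 h (log2 1.29, adjusted p = 7.55e-07). Of 27 fatty acid and phospholipid genes 12 rose (44.4%) and 4 fell (14.8%, range 2 to 3), or 12 and 3 without replicate 3, against 6 and 4 in the wild type. ole1, the fatty acid desaturase, had 4767, 3858 and 3520 CPM at 4 h and 2108, 2246 and 2009 CPM at 2 h (log2 0.93). Both genes lay clear of their 2 h libraries in every 4 h library.

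At the cell surface, 12 of 24 cell wall genes rose (50%) and 2 fell (range 1 to 3), median 0.37, or 11 and 1 without replicate 3, against 3 and 5 in the wild type. gas1, a glucanosyltransferase, had 1110, 976 and 901 CPM at 4 h, against 495, 441 and 416 CPM at 2 h (log2 1.14, adjusted p = 8.05e-07), and bgs1, a glucan synthase, rose by 0.87. Of 14 flocculins 6 rose (42.9%, range 3 to 7) and 1 fell, or 7 and 1 without replicate 3. pfl2 had 1862, 1523 and 1390 CPM at 4 h and 746, 751 and 737 CPM at 2 h (log2 1.10). By contrast pfl7 fell by 1.21, at low means of 2.37 CPM at 4 h and 5.53 CPM at 2 h.

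More stress and starvation genes rose than fell in both strains. Of 40 core stress response genes 20 rose in HASX (50%) and 4 fell (10%), median 0.35, or 22 and 4 without replicate 3, against 24 and 1 in the wild type with a median of 0.53. pcr1, a bZIP transcription factor, had 246, 213 and 184 CPM in HASX at 4 h, against 96.5, 101 and 89.3 CPM at 2 h (log2 1.16), and csx1, an RNA-binding protein of oxidative stress, had 362, 309 and 347 CPM, against 153, 168 and 125 CPM (log2 1.19). The difference between the steps was positive for 5 of the 40 and negative for 14, or 6 and 15 without replicate 3. Of 24 nitrogen starvation genes 12 rose (50%) and 3 fell, or 13 and 2 without replicate 3, against 11 and 4 in the wild type. fil1, the transcription factor of amino acid starvation, had 1063, 899 and 779 CPM at 4 h, against 424, 438 and 417 CPM at 2 h (log2 1.10), and the ammonium transporter amt1 rose by 0.80.

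Autophagy genes moved less in HASX than in the wild type. Of 32, 11 rose in HASX (34.4%, range 8 to 16) and 3 fell (9.38%, range 1 to 3), median 0.17, or 16 and 2 without replicate 3, against 24 higher (75%) and 0 lower in the wild type, median 0.53. The difference between the steps was negative for 14 and positive for 0, or 12 and 2 without replicate 3. atg13, of the initiating kinase complex, had 300, 283 and 214 CPM in HASX at 4 h and 148, 145 and 142 CPM at 2 h (log2 0.87), and ctl1 rose by 0.85.

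Of 33 genes of the TOR pathway, which links nutrients to growth, 10 rose (30.3%) and 3 fell (9.09%), or 16 and 3 without replicate 3 (ranges 9 to 16 and 2 to 4). gtr1, a Rag GTPase, had 26.1, 25.5 and 24.4 CPM at 4 h, against 9.69, 11.5 and 12.7 CPM at 2 h (log2 1.16), and igo1, an inhibitor of PP2A, had 514, 493 and 450 CPM, against 228, 232 and 229 CPM (log2 1.08). Neither was called in the wild type (0.11 and 0.13), and the differences of 1.05 and 0.95 passed the test. ppa2, a PP2A catalytic subunit, had 270, 250 and 916 CPM at 4 h and 177, 191 and 197 CPM at 2 h, with 1.35 with all libraries and 0.48 without replicate 3. ecl1, which extends chronological lifespan, had 158, 127 and 117 CPM at 4 h and 53.9, 49.5 and 53.6 CPM at 2 h (log2 1.36), and 2 of the 3 genes of its family rose, also without replicate 3.

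Of 34 chaperone and heat shock genes 12 rose (35.3%) and 2 fell (ranges 5 to 16 and 0 to 2), or 16 and 0 without replicate 3, against 5 and 20 in the wild type. The difference between the steps was positive for 19 and negative for 3 with and without replicate 3. cct8, of the cytosolic chaperonin, rose by 0.63; without HASX 2 h replicate 1 the count of higher members was 5. Of 14 ER chaperone and unfolded protein response genes 3 rose (21.4%), 6 without replicate 3 (range 2 to 6), among them the oxidoreductase ero11 (0.47). Of 13 copper and zinc genes 6 rose (46.2%) and 1 fell (range 0 to 1), or 7 and 0 without replicate 3, but 3 rose without HASX 2 h replicate 3 or 4 h replicate 1. The metallothionein zym1 had 10739, 12566 and 10467 CPM at 4 h and 6569, 6927 and 7356 CPM at 2 h (log2 0.70, against 2.64 in the wild type), and the superoxide dismutase sod1 rose by 0.83. Among 16 iron genes 2 rose (range 1 to 2) and 1 fell (range 0 to 1), or 2 and 0 without replicate 3. str2, a siderophore transporter, had 139, 128 and 321 CPM at 4 h and 79.4, 75.7 and 69.6 CPM at 2 h, with 1.39 with all libraries and 0.86 without replicate 3.

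Cell cycle genes went both ways. Of 31 G1/S genes 6 rose (19.4%) and 8 fell (25.8%), median -0.18, or 6 and 7 without replicate 3, with cdc22, the large ribonucleotide reductase subunit, at 401, 303 and 339 CPM in HASX at 4 h, against 186, 186 and 189 CPM at 2 h (log2 0.89). Of 37 mitosis and septation genes 9 rose (24.3%, range 7 to 11) and 8 fell (21.6%, range 4 to 9), or 11 and 9 without replicate 3. The kinesin klp6 had 9.5, 10.3 and 12.8 CPM at 4 h and 24.2, 23.7 and 23.3 CPM at 2 h (log2 -1.12), and adg1 fell by 1.12 as well. Of 10 core histone genes 4 rose (40%) and 1 fell (range 1 to 2), or 5 and 1 without replicate 3. hhf2, histone H4, had 1686, 1419 and 1229 CPM at 4 h, against 610, 599 and 639 CPM at 2 h (log2 1.23), and its divergent neighbour hht2, histone H3, rose by 0.96 while hht1 fell by 0.60. Histone gene copies are near identical, so the split between them is uncertain.

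Mating and meiosis genes had no common direction. Of 45, 10 rose (22.2%, range 6 to 11) and 8 fell (17.8%, range 2 to 9), or 9 and 9 without replicate 3, against 15 and 1 in the wild type. mam4, which methylates the M-factor, had 43.8, 48.1 and 43 CPM at 4 h and 27.6, 19.5 and 19 CPM at 2 h (log2 1.03), and rec11, of meiotic cohesin, had 16.1, 19.9 and 14.1 CPM at 4 h and 37.2, 37.1 and 34.9 CPM at 2 h (log2 -1.13, against 1.16 in the wild type). Mating type markers were summed in an M-cell list of 6 genes and a P-cell list of 5, and none was at 0. The receptor genes are misplaced in these lists. map3, the M-factor receptor of P cells, was in the M-cell list, at means of 18 CPM in HASX at 4 h and 21.6 CPM at 2 h. mam2, the P-factor receptor of M cells, was in the P-cell list, at 2.48 and 3.25 CPM. The sums therefore do not separate the cell types cleanly. The M-cell list summed to 101 to 112 CPM in HASX at 4 h and 105 to 114 CPM at 2 h. In the wild type it was 608 to 740 CPM at 4 h and 394 to 460 CPM at 2 h. The P-cell list summed to 877 to 1142 CPM in HASX at 4 h and 604 to 713 CPM at 2 h. In the wild type it was 777 to 822 CPM at 4 h and 761 to 985 CPM at 2 h. Most of the sum in HASX was sxa1, a protease gene that rose by 0.60. The M-factor precursor mfm1 averaged 3.01 CPM in HASX at 4 h and 3.14 CPM at 2 h. In the M-cell list 0 rose and 2 fell with all libraries (range 0 to 1, and 1 without replicate 3). In the P-cell list 2 rose and 1 fell (ranges 1 to 3 and 0 to 2, and 2 and 2 without replicate 3). These counts did not hold the same genes. map2 rose by 1.33 with all libraries but stood at -0.01 (adjusted p = 0.975) without replicate 3. map4 (0.34) and mam2 (-0.63) were called only without it.

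Genes of RNA processing and protein turnover leaned lower with all libraries, but these counts were among the least stable. Of 21 genes of RNA 3' end processing 8 fell (38.1%, range 2 to 5) and 4 rose (19%, range 2 to 4), or 4 and 2 without replicate 3. Here rna14 of the cleavage factor fell by 0.75 and msi2 by 0.52. Among the higher ones, pcf11 (1.97), iss1 (1.45) and dhp1 (0.53) stood at -0.03, -0.12 and 0.12 without replicate 3. By contrast seb1 (0.50) stood at 0.63 without it. The rising gene mpe1 was not on this list. Of 24 genes of the nuclear exosome and RNA elimination 5 fell (20.8%, range 1 to 6) and 3 rose (12.5%, range 2 to 3), or 2 and 3 without replicate 3, and the poly(A)-binding protein pab2 fell by 0.46. Of 34 proteasome genes 10 fell (29.4%, range 5 to 11) and 2 rose (5.88%, range 2 to 7), with 5 lower and 7 higher without replicate 3, and the lid subunit rpn6 fell by 0.60. Of 61 mitochondrial ribosomal protein genes 15 fell (24.6%, range 9 to 15) and 4 rose (6.56%, range 2 to 10), with 9 lower and 10 higher without replicate 3.

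The same step in the wild type was measured in libraries not shared with HASX. From 2 to 4 h, 224 genes were at least 2-fold higher (3.59%) and 237 at least 2-fold lower (3.8%) in the wild type. Of the changes that held in HASX with and without replicate 3, 11 higher genes were shared, 15.5% of the 71 HASX genes and 4.91% of the 224, and 2 lower genes, 3.12% of the 64 and 0.844% of the 237. At the adjusted p alone, 26 of the 71 rose in the wild type, 6 fell and 39 were not called. Of the 64, 3 fell, 11 rose and 50 were not called. By that measure 14.4% of all genes tested rose in the wild type and 13.6% fell. Across 5005 protein-coding genes the log2 changes of the strains correlated at r = 0.08 (rho = 0.13), or 0.13 (rho = 0.17) without replicate 3, a description across genes that are not independent replicates.

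Tested directly, the step differed between HASX and the wild type by at least 2-fold at 422 genes with a positive difference (6.77%) and 345 with a negative one (5.53%). Without replicate 3 these were 324 (5.18%) and 475 (7.6%). The 8 most positive protein-coding genes with all libraries stood high in replicate 3 alone. tri1, a CAF1 family ribonuclease, had 6.42, 10.9 and 1528 CPM in HASX at 4 h and 15.9, 13.8 and 16.5 CPM at 2 h, and its difference of 4.44 was -1.47 without that library (adjusted p = 0.00346). With any library at 2 h or any wild-type library at 4 h left out, the difference at tri1 was not past the test (adjusted p from 0.068 to 0.0973). The 8 most negative held without it. SPAPB1A11.03, an L-lactate dehydrogenase, fell in HASX by 0.73 and rose by 3.30 in the wild type, a difference of -4.03 (-3.93 without replicate 3). It had 318, 267 and 231 CPM in HASX at 4 h and 406, 470 and 476 CPM at 2 h, against wild-type means of 134 CPM at 4 h and 13.7 CPM at 2 h. cum1 followed with -4.00.

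The other negative genes likewise rose in the wild type and fell or were not called in HASX. prl65 had 470, 588 and 436 CPM in HASX at 4 h and 825, 1041 and 1076 CPM at 2 h (log2 -0.98), against a rise of 2.56 in the wild type. hsp3101, a glyoxylase III like hsp3103, had 353, 422 and 318 CPM at 4 h and 647, 700 and 784 CPM at 2 h (log2 -0.97), against a rise of 2.21. ssd2 fell by 1.27 in HASX and rose by 1.95 in the wild type. SPAC4F10.17 (-0.48, adjusted p = 0.0614), hry1 (0.46, adjusted p = 0.0699, and 0.64, adjusted p = 0.0082, without replicate 3) and SPAC4H3.08, a hydroxyacyl-CoA dehydrogenase (-0.07, adjusted p = 0.707), were not called in HASX with all libraries and rose by 3.11, 3.60 and 3.03 in the wild type. At 4 h the level was still above the wild type: SPAC4F10.17 had 223, 286 and 185 CPM in HASX and a mean of 8.12 CPM in the wild type, and hry1 had 226, 312 and 185 CPM in HASX and a mean of 5.16 CPM. SPAC4H3.08 had 1321, 1281 and 984 CPM in HASX and a mean of 107 CPM in the wild type.

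**Figure D5:**
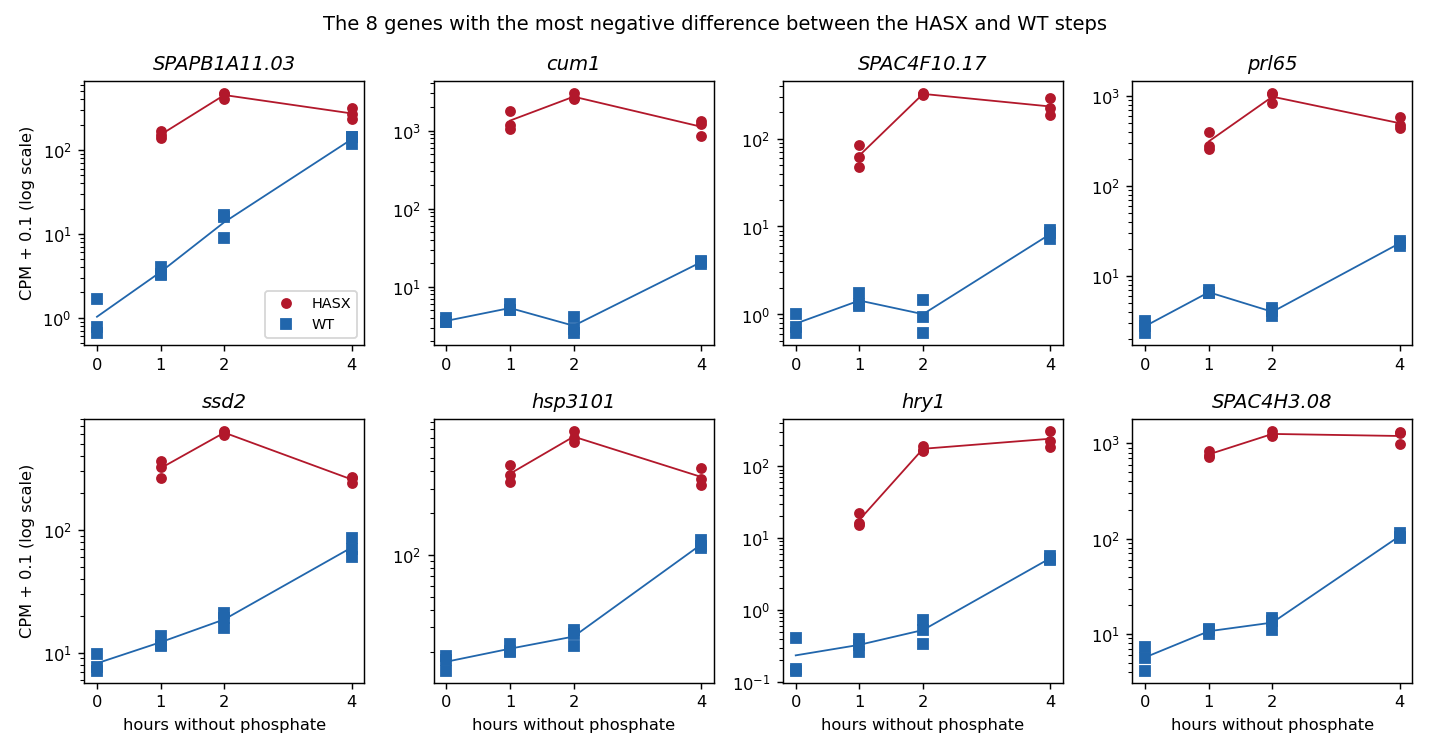
CPM plus 0.1 on a log axis against hours without phosphate for the 8 protein-coding genes with the most negative difference between the steps; circles are HASX libraries at 1, 2 and 4 h, squares wild-type libraries at 0, 1, 2 and 4 h, and lines run through the group means. In HASX the means rise from 1 to 2 h, and at 4 h they are lower or close to the 2 h mean except in hry1, which is higher, while in the wild type they climb between 2 and 4 h and stay below HASX.

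In the preceding step of HASX, from 1 to 2 h, 170 genes were at least 2-fold higher (2.73%) and 143 lower (2.29%). That step shares the 2 h libraries with the later one, so the values are set side by side only. At the adjusted p alone 14.7% of genes rose in it and 16.9% fell. All 8 genes with the most negative differences rose in it, by 1.57 for SPAPB1A11.03, 1.02 for cum1, 2.33 for SPAC4F10.17, 1.65 for prl65, 0.96 for ssd2, 0.89 for hsp3101, 3.29 for hry1 and 0.71 for SPAC4H3.08. nmt1 rose in both steps, with 9.51 CPM on average at 1 h (2.87 in the earlier step and 3.01 in the later), and so did thi2 (1.45 and 2.61) and gpd3 (1.87 and 1.00). The opposite order was seen in sro1 (-0.93 and 2.00), ecl1 (-1.65 and 1.36), fur4 (-0.72 and 1.29), erg25 (-0.74 and 1.29) and tgp1 (-0.64 and 0.60). SPCC757.13, at a mean of 354 CPM at 1 h, fell in both steps (-2.05 and -1.23). pho1 was not called in the earlier step (0.23, adjusted p = 0.208).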

How the data were processed

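Strains, times and replicates were taken from the labels, and libraries were TruSeq stranded mRNA, paired-end, per the labels. The deposited tables hold raw counts per gene and library for 6988 identifiers, made by the authors with HISAT2 2.1.0, SAMtools and HTSeq 0.10.0 on build ASM294v2, with DESeq2 also listed, per the submitters' processing notes. Counting settings, including strand, are not given in the sources used here, so overlapping and antisense genes, and near-identical paralogs, may share reads. The wild type and HASX are in separate tables, joined by identifier.

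Identifiers were matched to the annotation of ASM294v3 for names, classes and opposite-strand overlap only (6836 by locus tag, 12 by synonym, 140 unmatched). Because the builds differ, no coordinates or sequences are given. With edgeR 4.0.16 in R 4.3.3, filterByExpr kept 6234 genes and removed 754, libraries were scaled by TMM, and the quasi-likelihood test used a fit over the 21 libraries, each group having its own mean (14 residual degrees of freedom, biological coefficient of variation 0.212). Without HASX 4 h replicate 3 it was 6252 genes and 0.132. P-values were Benjamini-Hochberg adjusted over all genes tested. Genes were called at an adjusted p under 0.05 and 2-fold, list members and named genes at the adjusted p alone. CPM are on TMM-scaled library sizes, ± is the SE of a log2 fold change, and groups had n = 3. The TMM factors were 0.739, 0.802 and 0.837 at HASX 4 h and 1.000, 0.952 and 0.958 at HASX 2 h. A CPM value at HASX 4 h therefore stands higher beside 2 h than the gene's share of the counts does. Rises and falls are relative to this scaling. The labels call the replicates biological but name no cultures, so p-values measure the spread between these samples.

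Named were the engineered genes and ura4, and pho1, pho84 and tgp1. Also named, at a mean of at least 10 CPM over the 6 libraries and with replicates 1 and 2 in agreement, were the 12 largest rises and 12 largest falls of protein-coding genes, 3 each way of non-coding RNAs, and 6 each way called only without replicate 3. Up to 3 genes per list needed that agreement but no minimum CPM. The 8 each way by the difference between the steps needed a mean of at least 10 CPM over 12 libraries, HASX and wild type, and HASX 4 h replicates 1 and 2 within 2-fold of each other only. Of the genes so named, 2 are not reported here. Other genes, such as opposite-strand partners and markers, are named only beside a result they bear on. The members and the 41 lists were chosen with earlier results of these data known. In the lists, 107 entries had no match in the tables. The fitting was tested on simulated data drawn at about the spread without replicate 3, with no library standing apart. That test does not bear on the calls that include replicate 3. Alternatives were DESeq2 1.42.0, its size factors, no filter, a replicate block, fits to fewer groups and each library left out, and, added after seeing the data, genes with no opposite-strand overlap.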

Additional observations from a re-analysis of the deposited data

Results flagged for a closer look

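The step from 2 to 4 h differed between HASX and the wild type by the test of the difference itself, with at least 2-fold at an adjusted p under 0.05, for 422 genes in the positive direction and 345 in the negative (edgeR quasi-likelihood test; 324 and 475 without HASX 4 h replicate 3). Among the protein-coding genes named by size, the positive log2 differences were 5.96 for spo6, 5.05 for SPACUNK4.20, 4.94 for SPAC22E12.02, 4.44 for tri1, 4.21 for eta2, 3.65 for siw14, 3.48 for SPAC4H3.06 and 3.08 for SPAC630.06c. Without HASX 4 h replicate 3 they were 0.45 for spo6, -0.82 for SPACUNK4.20, 0.34 for SPAC22E12.02, -1.47 for tri1, -0.57 for eta2, 0.15 for siw14, -0.03 for SPAC4H3.06 and 0.34 for SPAC630.06c. On the strand opposite spo6, lam2 was at 280, 277 and 256 CPM in HASX at 4 h, opposite SPACUNK4.20 gor1 was at 5680, 5425 and 4614 CPM, and opposite tri1 gas2 was at 2747, 2327 and 2014 CPM. siw14 is deleted in HASX.

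The negative log2 differences were -4.03 for SPAPB1A11.03, -4.00 for cum1, -3.59 for SPAC4F10.17, -3.54 for prl65, -3.22 for ssd2, -3.17 for hsp3101, -3.13 for hry1 and -3.10 for SPAC4H3.08. Without replicate 3 they were -3.93 for SPAPB1A11.03, -3.82 for cum1, -3.44 for SPAC4F10.17, -3.45 for prl65, -3.17 for ssd2, -3.08 for hsp3101, -2.97 for hry1 and -2.98 for SPAC4H3.08.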

How the results depend on the processing

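The count of genes higher in HASX at 4 h depended most on the processing: 409 with all groups fitted, 53 with only the groups compared, 128 with the HASX libraries alone, 122 without replicate 3 and with a replicate block, and 65 among genes with no opposite-strand overlap. Lower genes numbered 109, then 203 without replicate 3 and with a block, and 62 without opposite-strand overlap. The last restriction, which tests fewer genes, gave 118 higher and 145 lower in the wild type and 150 positive and 185 negative differences between the steps. Leaving out each library gave 132 to 556 higher and 89 to 213 lower in HASX, 324 to 549 positive and 314 to 475 negative differences, and 197 to 257 higher and 208 to 265 lower in the wild type. The low end of the higher and of the positive counts, and the high end of the lower and of the negative, came without HASX 4 h replicate 3. The other settings kept each count within 1.5 times, with 451 higher under DESeq2's size factors and 313 under DESeq2's own test.

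Replicate numbers did not pair the HASX libraries (correlations of same-numbered deviations 0.06, -0.03 and 0.04). In the wild type these were -0.07, -0.03 and 0.42, so replicate 3 there did match its own number. With the replicate block 277 genes were higher and 107 lower in HASX.

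Of 178 single gene results, 169 had 1 sign under every setting and 121 also kept their call. Reversals came without replicate 3, alone and with the block: asp1 -0.35 and -0.32, crp79 -1.49 and -1.50, SPAC694.03 -1.55 and -1.53, SPAC1039.08 -1.43 and -1.41, SPAC4H3.08 0.07 and 0.06, and for the difference between the steps SPACUNK4.20 -0.82 and -0.78, tri1 -1.47 and -1.45, eta2 -0.57 and -0.60 and SPAC4H3.06 -0.03 and -0.02. SPAC694.03 also reversed with the block (-0.18), with only the groups compared (-0.02) and without HASX 2 h replicate 2 (-0.14), and SPAC1039.08 with the block (-0.12) and without HASX 2 h replicate 2 (-0.02). With another library left out, the farthest values were 0.84 for asp1, 1.89 for crp79, 0.42 for SPAC694.03, 0.47 for SPAC1039.08, -0.16 for SPAC4H3.08, 5.60 for SPACUNK4.20, 4.99 for tri1, 4.73 for eta2 and 4.00 for SPAC4H3.06. The cause was not tested beyond the overlap values above. Genes under about 10 CPM rest on few counts, and their fold changes are the least precise.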
